A study of Mus musculus with 6 samples.

Results

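The 8 genes described here encode proteins of the cytoskeleton and of the nuclear lamina. Tmsb4x, Tpm1, Flnc, Vasp and Arpc4 belong to the actin system, Tubb5 and Tuba1b to microtubules, and Lmnb1 to the lamina. They were taken by gene symbol, with every listed RNA G-quadruplex site of each, which gave 30 of 5538 sites and 8 of 2643 gene entries. Tubb5 held 7 sites, Lmnb1 5, Arpc4, Flnc and Tpm1 4 each, Tmsb4x 3, Vasp 2 and Tuba1b 1. Because many of these motifs overlap, the 30 sites cover only 18 separate stretches of sequence, and sites within a stretch share reads.

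Mouse embryonic stem cells were sampled before differentiation (day 0) and after 3 and 7 days of it, with 2 samples at each time. All 6 samples were of 1 clonal line, 129S1/CastEiJ x 129S1, labelled WT but heterozygous for the TsixTST allele, so that the day 0 samples carry this allele too. The cells were grown on inactivated feeders with LIF, depleted of feeders, and differentiated as embryoid bodies without LIF, in suspension up to day 3 and attached to gelatin later. They were treated with dimethyl sulfate (DMS), and poly A+ RNA was taken from the chromatin fraction, so levels below are those of chromatin-bound RNA. Each sample had a reverse transcription library in K+ and one in Li+, and both day 7 samples came with a further table, called in vitro by its name and not described elsewhere. Whether the replicates were separate cultures is not stated, and the spread behind each p-value may therefore be technical.

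An RNA G-quadruplex is a 4-stranded fold of guanine runs that K+ stabilises and Li+ does not. DMS methylates guanines that are not protected by folding, and methylated guanines can no longer build the structure. A reverse transcriptase that meets a folded motif stops, and motifs left unmethylated are read out by more frequent stops in K+ than in Li+. Actin filaments and microtubules give cells shape and carry transport and division. The lamina is the filament mesh under the inner nuclear membrane.

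The motifs on which the results below turn are printed 5′ to 3′ as RNA strand in DNA letters, with runs of at least 2 guanines in capitals.
Vasp site 1: GGGtttGGGGGcGGGGaaGGG
Arpc4 site 2: GGGttGGGtGGGcattGGatgtGGG
Arpc4 site 3, last 30 bases: gttGGGtGGGcattGGatgtGGGaGGtGGG
Flnc site 3, last 30 bases: ttGGGGGaagccttGGGGGtcatagtGGGG
Tubb5 site 1: GGagagatGGGGGttGGGGGtgcGGcaaGG
Tubb5 site 2: GGagagatGGGGGttGGGGGtgcGG
Tuba1b site 1: GGcgaGGGGGaGGaagaaGGagaGGag
Tmsb4x site 3: GGtgaaGGaaaaagctGGGtGGG
Tpm1 site 3: GGGtGGGttgcaGGtgtGGG
On mm10 these motifs lie at chr7:19257311-19257331 on the minus strand (Vasp site 1), chr6:113388891-113388915 and chr6:113388891-113388922 on the plus strand (Arpc4 sites 2 and 3), chr6:29461478-29461511 on the plus strand (Flnc site 3), chr17:35834167-35834196 and chr17:35834172-35834196 on the minus strand (Tubb5 sites 1 and 2), chr15:98931588-98931614 on the minus strand (Tuba1b), chrX:167207249-167207271 on the minus strand (Tmsb4x site 3) and chr9:67023595-67023614 on the minus strand (Tpm1 site 3). All lie in 3′ untranslated regions except Tuba1b site 1, which is coding. Tubb5 site 2 is site 1 without its last run of guanines, and Arpc4 site 3 runs past site 2 into further runs.

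Most of the 30 sites lay in 3′ untranslated regions, 21 sites or 70.0%, against 50.1% of all 5538 sites. Another 8 were coding (26.7%, against 24.2% of all sites) and 1, in Tpm1, was noncoding. None of the 30 was listed in a 5′ untranslated region, the place of 11.5% of all sites. By the deposited classes, 14 sites were bulged motifs (46.7%, against 41.7% of all sites), 6 potential quadruplexes (20.0%, against 10.3%), 4 two-quartet motifs (13.3%, against 19.2%), 3 canonical (10.0%, against 15.7%) and 3 long-loop motifs (10.0%, against 12.3%).

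Listed reads ran from 413278 to 4212056 per library and cation in cells. A listed 0 stands for at most 5 reads, since the lowest coverage listed above 0 is 6. At sites with 20 or more reads the median K+ stop share over all sites was highest in day 3 replicate 1, at 5.46%. It was 4.48% in day 7 replicate 1 and between 1.93% and 3.03% in the other in-cell samples. In day 0 replicate 2 the median was lower in K+ than in Li+, at 1.93% and 3.33%. This held by less in day 0 replicate 1 (2.5% in K+, 2.857% in Li+) and day 7 replicate 2 (2.965% and 3.448%). Results that rest on day 3 replicate 1 or day 0 replicate 2 are given with and without that sample. Reads of Tuba1b, Tubb5 and Tmsb4x can come from near-identical relatives or retrocopies, and the sources used here do not say how reads with several matches were counted.

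Reverse transcriptase stopped less often in K+ on RNA from DMS-treated day 7 cells than in the in vitro tables, in the mean of 2 replicates, at each of the 28 sites with 20 or more K+ reads in all 4 libraries. The in vitro K+ stop share ran from 11.02% to 91.4% over the 30 sites, with a median of 38.2%, and was above 50% at 11 of them. In day 7 cells, over those 28 sites, it ran from 1.00% to 22.9% with a median of 5.06%, and was above 10% at 4 sites. At the 27 sites with 20 or more reads in every one of these libraries, the median K+ share was 4.62% in day 7 cells and 38.1% in vitro, against 3.73% and 41.7% over all 2648 such sites. The K+ share was lower on day 7 than in vitro at all 27, as at 2643 of the 2648. Of those 2648 sites, 65.6% lay below Flnc site 2 (50.6% in vitro) and 90.2% below Tubb5 site 2 (10.3% on day 7). K+ stopped more often than Li+ at 16 of the 27 sites on day 7 (59.3%), against 59.0% of all such sites. In both in vitro tables K+ stopped more often than Li+ at 5538 of 5538 sites, so the sites appear to have been picked on those tables or on similar data, and no test of K+ against Li+ is given there.

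Vasp, a protein that speeds actin filament growth at the leading edge, had the widest gap in K+ share between cells and in vitro among these sites. At Vasp site 1, the canonical motif printed above with 4 runs and short loops, stops were 32 of 393 and 8 of 152 reads in K+ in day 7 cells, against 1046 of 1130 and 769 of 853 reads in vitro. That is a mean K+ share of 6.70% in cells and 91.4% in vitro, higher in vitro than at 99.4% of the 2648 sites with 20 or more reads in these libraries. Li+ gave 6.72% in the day 7 cells and 8.30% in vitro, so K+ and Li+ differed by 0.01 percentage points in cells, less than the replicates did. Vasp site 2, in coding sequence, gave 1.07% in K+ and 0.977% in Li+ on day 7, against 40.0% and 9.83% in vitro.

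Arpc4, a subunit of the Arp2/3 complex that starts branched actin filaments, had the highest K+ share in day 7 cells among the 28 measured sites. At Arpc4 site 3 stops were 71 of 262 and 22 of 118 reads in K+ on day 7, against 47 of 412 and 8 of 98 reads in Li+. The K+ shares were 27.1% (95% exact interval 21.8 to 32.9) and 18.6% (12.1 to 26.9), and the Li+ shares 11.4% (8.50 to 14.9) and 8.16% (3.59 to 15.5). The day 7 mean of 22.9% was above that at 99.0% of those 2648 sites, while the in vitro mean of 30.5% was above that at 25.2% of them. Arpc4 site 2, which starts at the same base and ends 7 bases earlier, gave 8.74% in day 7 cells and 75.4% in vitro, above 85.9% and 91.8% of the 2648 sites. Sites 1 and 4, which share the stretch, gave 5.50% and 4.62% in K+ and 1.22% and 2.46% in Li+ on day 7, against 19.0% and 18.9% in K+ in vitro. The intervals cover counting error only, and site 3 had too few reads on earlier days for the odds test below. With a coverage minimum of 10 it entered that test and was called higher in K+ on day 3, not on day 0 or day 7. Stops at site 3 on day 3 were 5 of 18 and 8 of 51 in K+, against 5 of 101 and 0 of 23 in Li+. This setting was not run with a sample left out.

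**Figure D1:**
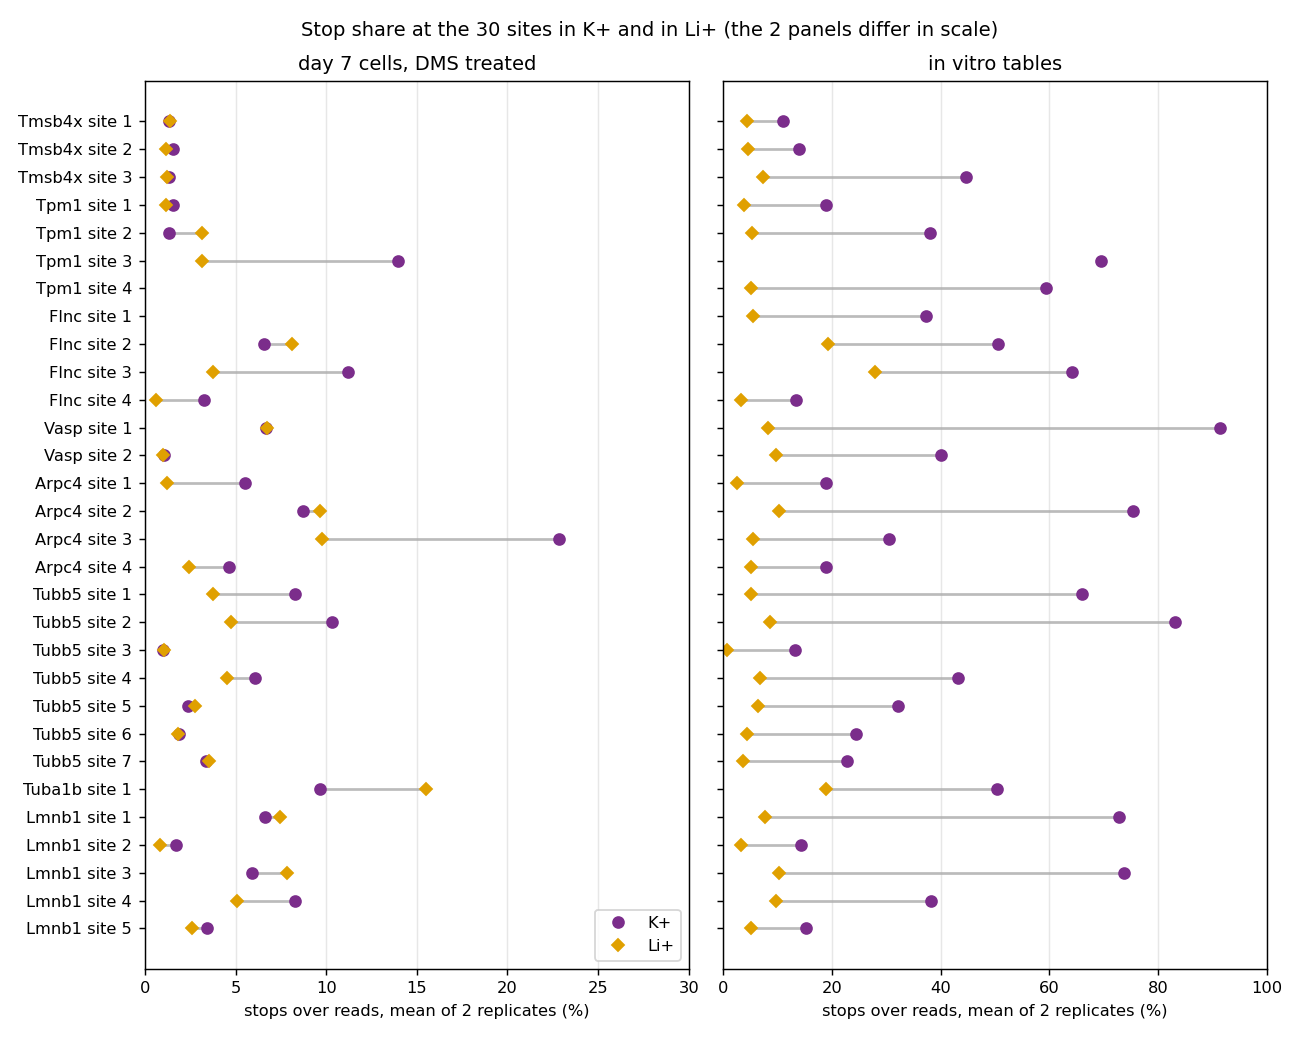
Stop share, stops over reads in percent, at each of the 30 sites in K+ (circles) and Li+ (diamonds), as means of 2 replicates, in day 7 cells on the left and in the in vitro tables on the right, on different scales. Sites under 20 reads in a library have no point. In vitro K+ shares reach 91.4%, whereas in cells the highest is 22.9%, at Arpc4 site 3.

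Flnc, a muscle-enriched filamin that crosslinks actin, had its printed site 3 at 67 of 557 and 16 of 155 stops in K+ on day 7, against 30 of 1035 and 8 of 173 in Li+. The mean share was 11.2% in K+ and 3.76% in Li+. In vitro the same site stopped in 64.2% of K+ reads and 28.0% of Li+ reads. This Li+ share was the highest among the 29 sites with 20 or more Li+ reads in both in vitro tables. Flnc sites 2 and 4 gave means of 6.59% and 3.28% in K+ and 8.09% and 0.593% in Li+ on day 7. The replicates of site 2 differed, with 53 of 429 and 1 of 120 stops in K+ and 81 of 841 and 8 of 122 in Li+. Li+ stops at site 4 were 6 of 506 and 0 of 87. Flnc site 1 gave 37.3% in K+ and 5.56% in Li+ in vitro. Tpm1 site 3, a motif of tropomyosin 1, which lies along actin filaments, had 6 of 34 and 4 of 39 stops in K+ on day 7 and 3 of 48 and 0 of 23 in Li+; these reads are few, and the 0 allows a Li+ share of up to 13.0%. Tpm1 sites 1 and 2 had many more reads and gave 1.57% and 1.34% in K+ and 1.18% and 3.13% in Li+ on day 7, and site 4 gave 59.4% in K+ and 5.08% in Li+ in vitro. Tuba1b, an alpha-tubulin, had the lower share in K+, with 9.65% in K+ and 15.5% in Li+ on day 7, against 50.3% and 18.9% in vitro.

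Tmsb4x, thymosin beta 4, which binds actin monomers, had low shares in cells, with K+ means from 1.31% to 1.54% over its 3 sites on day 7. Site 3 stopped in 117 of 6579 and 21 of 2348 K+ reads on day 7, against 144 of 10611 and 18 of 1728 Li+ reads. The mean was 1.34% in K+ and 1.199% in Li+ on day 7, while the in vitro K+ mean was 44.6%. Its day 7 libraries held between 1728 and 10611 reads over the site.

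Among the 7 sites of Tubb5, a beta-tubulin, the overlapping sites 1 and 2 had the highest K+ shares both in cells and in vitro. On day 7 site 2 gave 10.3% in K+ and 4.75% in Li+, against 83.2% and 8.65% in vitro. Site 1 gave 8.26% in K+ and 3.74% in Li+ on day 7, against 66.1% and 5.14% in vitro. The other 5 sites stopped in 1.00% to 6.09% of K+ reads on day 7 and in 13.2% to 43.3% in vitro.

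Lmnb1, lamin B1, has 5 sites, 2 in coding sequence and 3 in the 3′ untranslated region, on the plus strand of chromosome 18 between 56749741 and 56753327. Site 3 stopped in 5.90% of K+ and 7.81% of Li+ reads on day 7, and in 73.7% and 10.4% in vitro. Site 1 gave 6.61% in K+ and 7.47% in Li+ on day 7, and 72.8% and 7.74% in vitro. At the other 3 sites the mean K+ share was above the mean Li+ share on day 7. The shares were 8.28% and 5.10% at site 4, 3.41% and 2.58% at site 5, and 1.71% and 0.845% at site 2. Stops at site 2 were few, 6 of 176 and 0 of 136 in K+ and 5 of 296 and 0 of 99 in Li+.

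Whether K+ stopped reverse transcription more often than Li+ within cells was tested as the log2 odds ratio of stopping, K+ over Li+, at the 847 sites with 20 or more reads in every in-cell library. Of the 30 sites 16 entered, from Tubb5 (7), Lmnb1 (4), Tmsb4x (3), Arpc4 (1) and Vasp (1). On day 3, 2 of the 16 stopped more often in K+ than in Li+ at an adjusted p under 0.05 in limma, against 7.79% of all 847 sites. Tubb5 site 2 had 7 of 52 and 17 of 114 stops in K+ on day 3, against 6 of 251 and 2 of 67 in Li+, a log2 odds ratio of 2.47 ± 0.73 (SE, n = 2; adjusted p = 0.0376 in limma). Lmnb1 site 3 had 21 of 137 and 12 of 397 stops in K+, against 14 of 644 and 3 of 186 in Li+, a log2 odds ratio of 2.24 ± 0.58 (adjusted p = 0.0242 in limma). K+ was above Li+ in both replicates at both sites, though at Lmnb1 site 3 mainly in replicate 1, with 3.00 against 0.77. Without day 3 replicate 1, where the median log2 odds ratio of all 847 sites was itself 1.31, neither passed (adjusted p = 0.966 for each), with 2.23 left at Tubb5 site 2 and 0.77 at Lmnb1 site 3. Neither passed with a pseudocount of 1 (adjusted p = 0.0684 and 0.0515) or without weights (0.168 and 0.21), and Tubb5 site 2 did not without day 3 replicate 2 (0.0763) or with a coverage minimum of 50 (0.0512).

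On day 0 and on day 7, limma called no site of the 847 (0% of sites on either day), with 41 and 71 sites at an unadjusted p under 0.05. On day 7 the lowest adjusted p of the 16 sites was 0.162, at Tubb5 site 1. This site had 72 of 736 and 19 of 282 stops in K+ against 21 of 1293 and 13 of 222 in Li+, a log2 odds ratio of 1.63 ± 0.50. It lay above 0 in both replicates, at 2.69 and 0.20, where the medians of all 847 sites were 0.49 and -0.12.

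The change of these odds between days passed the test at 1 of the 16 sites, from day 0 to day 3, against 6.26% of all 847. At Tubb5 site 1, stops on day 3 were 13 of 74 and 14 of 125 in K+ and 13 of 244 and 1 of 57 in Li+. On day 0 they were 16 of 312 and 6 of 134 in K+ and 11 of 176 and 30 of 152 in Li+. The log2 odds ratio was 1.91 and 2.29 in the day 3 samples and -0.32 and -2.30 in the day 0 samples, without overlap, and the difference was 3.25 ± 0.91 (adjusted p = 0.0382 in limma). It kept its direction but not its call without day 0 replicate 2 (2.33, adjusted p = 0.208), without day 3 replicate 1 (3.53, adjusted p = 0.856) or without day 3 replicate 2 (3.15, adjusted p = 0.0537). With the K+ and Li+ columns of day 0 replicate 2 exchanged it was 1.11 (adjusted p = 0.723). It also missed the threshold with a coverage minimum of 50 (adjusted p = 0.0555), a pseudocount of 1 (0.0685) or no weights (0.17).

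For day 7 against day 0 and for day 7 against day 3, limma called no site for a change of the odds (0% of the 847 in each), with 85 and 79 at an unadjusted p under 0.05. Tubb5 site 1 again had the lowest adjusted p of the 16 for day 7 against day 0, with a difference of 2.87 ± 0.77 (adjusted p = 0.206). For day 7 against day 3 this was Lmnb1 site 3, with a difference of -2.74 ± 0.72 (adjusted p = 0.29).

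**Figure D2:**
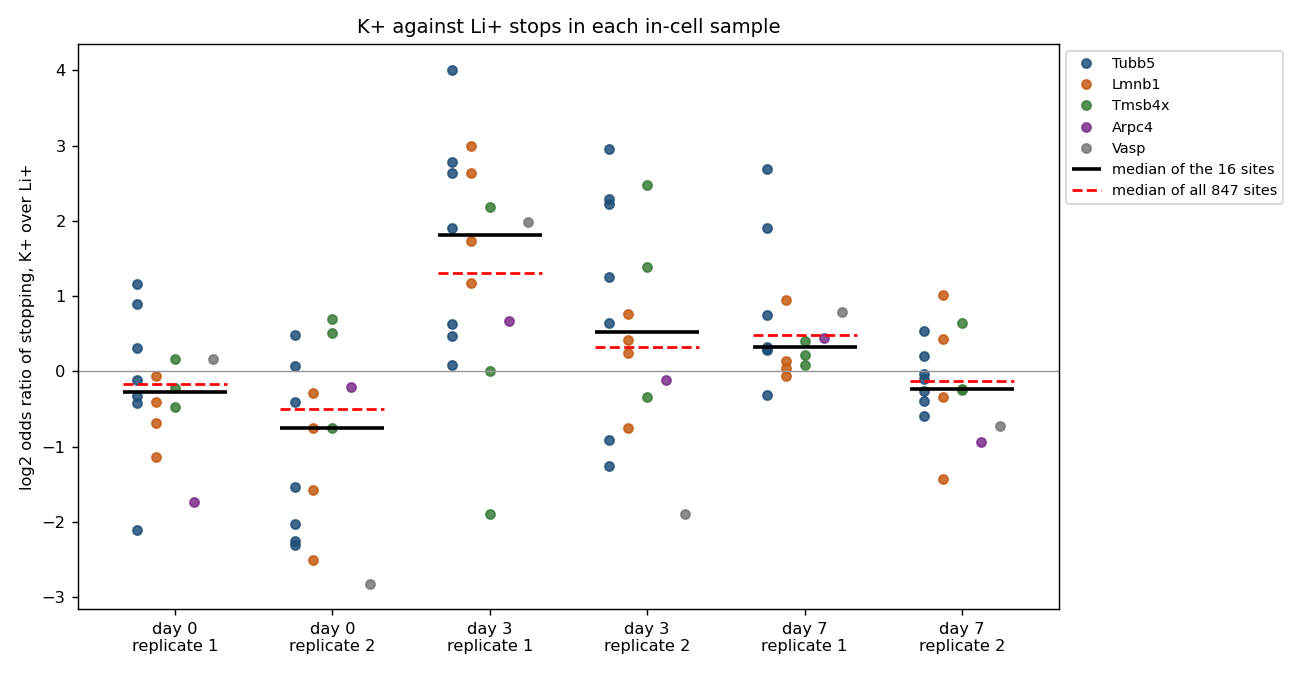
Log2 odds ratio of stopping, K+ over Li+, at the 16 tested sites (points, coloured by gene) in each in-cell sample, with the median of the 16 sites (solid bar) and of all 847 sites (dashed bar). In day 3 replicate 1, 15 of 16 sites lie above 0, beside 82.5% of all 847. The median over all sites is 1.31 there and -0.50 in day 0 replicate 2.

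In each sample the median of the 16 sites lay on the same side of 0 as that of all 847 sites. The medians of the 16 were -0.27 and -0.75 on day 0, then 1.82 and 0.53 on day 3, then 0.32 and -0.23 on day 7, against -0.16 and -0.50, 1.31 and 0.33, and 0.49 and -0.12 over all sites. Of the 16 sites, 5 and 4 lay above 0 in the day 0 samples, 15 and 10 in the day 3 samples, and 14 and 5 in the day 7 samples. Over all 847 sites the shares above 0 were 43.6% and 33.1%, then 82.5% and 59.6%, then 75.6% and 44.2%.

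K+ stop counts without correction for Li+ were compared between days at 327 sites, 15 of them among the 30. A site had to have enough stops in at least 2 libraries, which Flnc site 3 reached through the day 7 samples alone. Between day 7 and day 0, Flnc site 3 rose and Tuba1b site 1 fell, 2 of the 15 sites against 16.2% of all 327. Flnc site 3 had 67 and 16 stops on day 7, against 0 in either day 0 sample, where 14 K+ reads covered it in replicate 1 and none were listed in replicate 2. Set against a floor of 5 stops per library on day 0, that is at least 1.74-fold higher on day 7 (113 ± 31.4 CPM, counts scaled to a common library size over the tested sites, SD, n = 2; adjusted p = 0.00208 in limma). A site admitted through day 7 alone had to differ from the earlier days, so this p-value adds nothing to the counts.

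Tuba1b had 21 and 16 K+ stops on day 7, against 45 and 13 on day 0, in libraries of unequal depth. These were 42.4 and 91.0 CPM on day 7, against 266.7 and 260.7 CPM on day 0, without overlap. The log2 fold change was -2.21 ± 0.59 (adjusted p = 0.0291 in limma). Of the K+ reads over the site, 11.05% and 8.25% ended in a stop on day 7, against 9.15% and 18.8% on day 0, and these ranges overlap. Reads over the site averaged 206 ± 27.2 CPM on day 7 and 386 ± 71.0 on day 0 (SD, n = 2 each), a log2 difference of -0.92 ± 0.39 that missed the threshold (adjusted p = 0.118 in limma). Without day 0 replicate 1 or without day 0 replicate 2 the log2 fold change of stops was -2.18 and -2.17 but no longer passed (adjusted p = 0.175 and 0.2), and without replicate 1 of day 7 it was -1.53 (0.185). It also missed the threshold with no filter on low counts (0.143) and with the cations of day 0 replicate 2 exchanged (0.0799), and when libraries were scaled by their total stops alone the log2 fold change was -1.04 (adjusted p = 0.228).

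Arpc4 site 3, with the highest K+ share in day 7 cells, had 71 and 22 K+ stops on day 7, against 8 and 1 on day 0. This amounted to 134 ± 13.0 CPM of stops on day 7 and 33.7 ± 19.3 on day 0 (SD, n = 2 each), and the samples of the days did not overlap. The log2 difference of 1.78 ± 0.56 missed the threshold (adjusted p = 0.0598 in limma), although it passed with libraries scaled by total stops, with scaling before the filter and without day 0 replicate 1. Lmnb1 site 4 passed with libraries scaled by total stops, and Lmnb1 site 1 without day 0 replicate 1. The remaining 12 sites had log2 differences from -1.23 at Tmsb4x site 1 to 0.96 at Lmnb1 site 4, and none passed.

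Between day 3 and day 0, limma called 2 of the 327 sites (0.612%) and none of the 15, with 45 sites at an unadjusted p under 0.05. Tmsb4x site 1 came nearest, with 0 and 4 stops on day 3, against 31 and 12 on day 0, or 22.0 ± 31.1 CPM on day 3 and 212 ± 40.3 CPM on day 0 (SD, n = 2 each; log2 difference -3.56 ± 0.82, adjusted p = 0.0985 in limma). The site passed with libraries scaled by total stops, with no filter on low counts, with scaling before the filter and without day 3 replicate 2, and the gene passed with stops summed over its sites. Between day 7 and day 3, 1 of the 15 sites passed, against 6.42% of the 327: Flnc site 3, with 67 and 16 stops on day 7, against 0 in either day 3 sample, at least 1.92-fold higher on day 7 (adjusted p = 0.00466 in limma), again as a site admitted through day 7 alone. Tmsb4x sites 1 and 3 also passed as higher with no filter on low counts and with scaling before the filter. Site 3 of Tmsb4x passed with total stops and with the cations of day 0 replicate 2 exchanged as well. With stops summed per gene, Tmsb4x and Tpm1 passed. Neither Tmsb4x site passed with median-ratio factors, with the 2 days alone or with the replicates as a block.

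**Figure D3:**
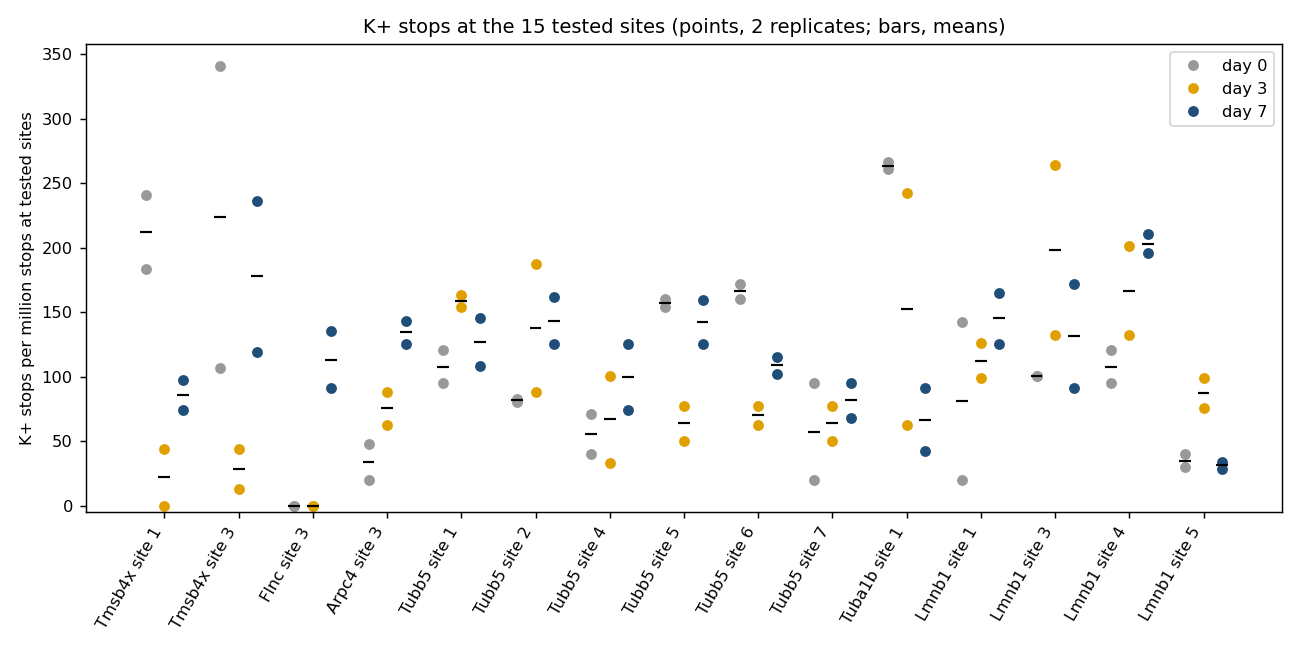
K+ stops in CPM for the 15 tested sites on days 0, 3 and 7, with each replicate as a point and the mean as a bar. Flnc site 3 has 0 stops on days 0 and 3 and a mean of 113 on day 7, and Tuba1b has its highest values on day 0.

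Reads over a site, K+ and Li+ summed, stood for the amount of chromatin-bound RNA, taken at each gene's best covered site. In such bulk samples fewer cells of a type and less RNA per cell cannot be told apart. All 8 genes were tested among 2389. On day 7 against day 0, Tpm1 and Flnc rose, 2 of the 8, beside 15.2% of all 2389 genes that rose and 18.4% that passed in either direction. On day 7 against day 3, Tpm1 and Tmsb4x rose, again 2 of the 8, beside 10.8% that rose and 12.6% that passed. For day 3 against day 0 limma called none of the 8 and 0.0837% of all genes, with 205 genes at an unadjusted p under 0.05. The median log2 fold change for day 7 against day 0 was 0.22 over the 8 genes and 0.57 over all 2389, and for day 7 against day 3 it was 0.47 over the 8 and 0.33 over all. With all 6 samples in the fit, Vasp, Arpc4, Tubb5, Lmnb1 and Tuba1b passed in no comparison.

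Tpm1 had 130 and 31 reads at its best covered site before differentiation, 77 and 44 on day 3 and then 3399 and 1056 on day 7. This was 76.3 ± 20.8 CPM on day 0, 85.5 ± 2.38 on day 3 and 840 ± 89.7 on day 7 (SD, n = 2 each). The 2 samples of day 7 lay far above all the others. The log2 fold change was 3.31 ± 0.33 for day 7 against day 0 (adjusted p = 0.00153 in limma) and held with any 1 sample left out. Against day 3 it was 3.30 ± 0.34 (adjusted p = 0.00305 in limma), and this call was lost without day 3 replicate 2 (adjusted p = 0.0627), when limma called 0 of the 2389 genes.

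Flnc had few listed reads before day 7. Its site 3 held 14 and 0 reads before differentiation, 20 and 12 on day 3 and then 1592 and 328 on day 7. This put day 7 at 332 ± 129 CPM, at least 22.4-fold above day 0 with the listed 0 set to a floor of 10 reads (adjusted p = 0.00376 in limma). Without day 0 replicate 2, the sample listed at 0, the adjusted p was 0.142. Day 7 against day 3, at 332 ± 129 CPM on day 7 and 22.8 ± 1.42 CPM on day 3, gave a log2 difference of 3.80 ± 1.29 (adjusted p = 0.108 in limma). It passed with K+ or Li+ reads alone, with reads summed per gene, and without day 0 replicate 1.

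Tmsb4x had the most reads of the 8 genes, 3558 and 1946 before differentiation, 789 and 412 on day 3 and then 17190 and 4076 on day 7. Its levels were 3177 ± 972 CPM on day 0, 838 ± 30.1 on day 3 and 3783 ± 1111 on day 7 (SD, n = 2 each). Day 3 was the low point, below every sample of the other days. The log2 fold change of day 7 against day 3 was 2.14 ± 0.33 (adjusted p = 0.00599 in limma), lost without day 3 replicate 2 (adjusted p = 0.0841). Day 3 against day 0 gave -1.88 ± 0.33 (adjusted p = 0.158 in limma), which passed with K+ reads alone and without day 0 replicate 1.

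With all 6 samples in the fit, levels of Tubb5, Lmnb1, Arpc4 and Vasp missed the threshold in each comparison. For Lmnb1 on day 7 against day 0 this depended on day 0 replicate 1. Tubb5 averaged 1605 ± 105 CPM on day 0, 1475 ± 251 on day 3 and 1829 ± 373 on day 7. Lmnb1 averaged 1169 ± 531, 991 ± 55.8 and 794 ± 105, and its day 0 samples, at 794 and 1545, spread more widely than the days. Arpc4 averaged 233 ± 43.3, 243 ± 24.2 and 240 ± 2.36, and Vasp 171 ± 72.6, 180 ± 62.1 and 262 ± 54.5 (SD, n = 2 each, days 0, 3 and 7 in this order). For day 7 against day 0 the log2 difference was 0.03 ± 0.27 for Arpc4, 0.18 ± 0.28 for Tubb5, -0.48 ± 0.35 for Lmnb1 and 0.76 ± 0.39 for Vasp. Motifs differ in length and position, so these levels do not rank the genes.

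**Figure D4:**
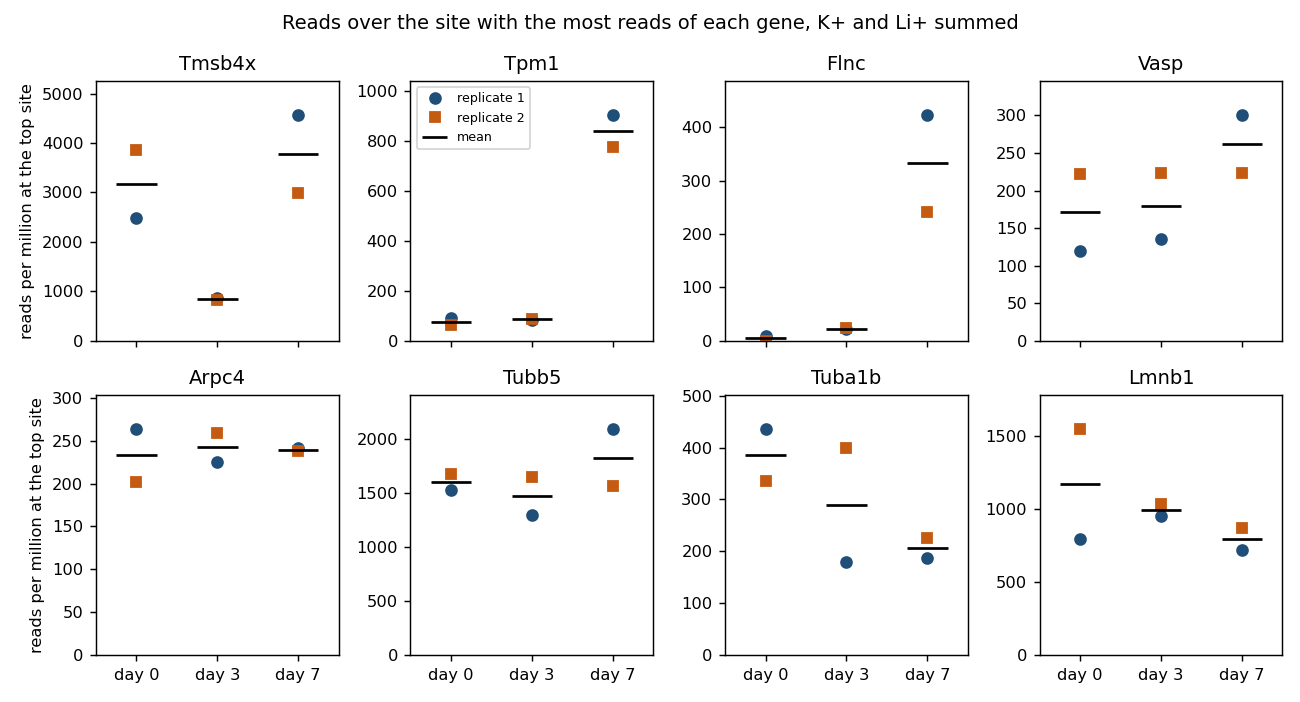
Reads in CPM at each gene's best covered site, K+ and Li+ summed, on days 0, 3 and 7, with each replicate as a point and the mean as a bar, and with a scale of its own in each panel. Tpm1 and Flnc are low until day 7, Tmsb4x is lowest on day 3, and Arpc4 averages 233, 243 and 240 on the 3 days.

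With all sites tested one by one, 8 of the 30 sites rose on day 7 against day 0, where 16.1% of 4990 sites rose and 20.3% passed in either direction. They were all 4 sites of Flnc, sites 1, 2 and 4 of Tpm1, and Tubb5 site 7. Flnc site 1 and Tpm1 site 4 had no listed reads in any earlier sample, and Flnc site 2 had 19, in day 3 replicate 1 only. These sites entered the test through day 7 alone, so their calls add nothing to their read counts. Flnc site 1 and Tpm1 site 4 were at least 2.12-fold and 2.15-fold higher on day 7. Tubb5 site 7, in coding sequence, averaged 312 ± 33.3 CPM of all sites on day 7 and 162 ± 38.6 on day 0 (log2 fold change 0.94 ± 0.27, adjusted p = 0.045 in limma), while the other 6 Tubb5 sites had log2 differences from -0.34 to 0.14. Against day 3, where 10.4% of sites rose and 12.1% passed, 8 of the 30 rose: Flnc sites 1 and 2, all 3 sites of Tmsb4x, and sites 1, 2 and 4 of Tpm1. Flnc sites 1 and 2 and Tpm1 site 4 are again those admitted through day 7 alone. Between day 3 and day 0 none of the 30 passed, against 0.0802% of the 4990, with 431 sites at an unadjusted p under 0.05. Sites of a gene share RNA and often reads, so they are not separate evidence for the gene.

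Other genes of these systems were read from lists of the actin, tubulin and lamina machinery. Of 72 further actin genes 36 were tested, and 15 rose and 0 fell on day 7 against day 0, beside the 15.2% of all genes that rose. Of the 15, 4 (Dbn1, Cdc42ep1, Iqgap1 and Tln1) had no listed reads in any earlier sample and so entered the test through day 7 alone. Rhob had 14 reads in day 3 replicate 1 and none in the other earlier samples, so it too needed its day 7 reads to enter. The 15.2% of all genes also holds genes admitted in this way. The list's median log2 fold change was 1.11, or 0.52 with genes at 0 on a day set to their bound, against 0.57 and 0.42 over all 2389 genes. Dbn1, drebrin, which binds actin filaments in protrusions, was at least 16.8-fold higher (adjusted p = 0.000855 in limma), with 799 and 323 reads on day 7 and no listed reads in either day 0 sample. Rhob, a small GTPase that acts on stress fibres, was at least 4.31-fold higher, and Cdc42ep1, a Cdc42 effector, at least 1.95-fold. Pfn1, profilin, and Iqgap1, an actin scaffold, were at least 1.31-fold and 1.08-fold higher. The day 7 levels of Pfn1, 13.8 and 21.3 CPM, overlapped its day 3 levels, 24 and 11.9 CPM. Tln1, talin, which links integrins to actin, was called (adjusted p = 0.0158 in limma) on 37 and 15 reads on day 7, but its level in both day 7 samples lies below the 13.4 CPM that the listed zeros of day 0 allow.

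Against day 3, 10 of the 36 actin genes rose on day 7 and 0 fell, beside 10.8% of all genes that rose. Of the 10, 4 were the genes without listed reads before day 7, and Rhob again needed its day 7 reads to enter. Dbn1 was at least 14.7-fold and Cdc42ep1 at least 1.71-fold higher. Iqgap1 was called too, but its 14.5 CPM on day 7 lie below the 15.4 CPM that the zeros of day 3 allow. Actn1, alpha-actinin, rose with a log2 fold change of 1.57 ± 0.28, and Rhoc, a RhoA relative, with 1.94 ± 0.40. The list's median was 0.68, or 0.51 with bounds, against 0.33 and 0.21 over all genes.

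Of 29 tubulin and microtubule genes 10 were tested. On day 7 against day 0, 2 rose and 1 fell, beside 15.2% of all genes that rose and 3.14% that fell: Map1b, a neuronal microtubule protein, at least 2-fold, Dctn1, a subunit of the dynein activator dynactin, at least 2.15-fold, and Tuba4a, another alpha-tubulin, with a log2 fold change of -1.84 ± 0.31 (adjusted p = 0.00665 in limma). Map1b had no listed reads in any earlier sample and so entered the test through day 7 alone. Map1b also rose and Tuba4a fell (-1.29 ± 0.32, adjusted p = 0.0377) on day 7 against day 3. Of 13 lamina genes 6 were tested, and limma called 0 for day 7 against day 0, with 0 also at an unadjusted p under 0.05. For day 7 against day 3, beside 10.8% of all genes that rose and 1.88% that fell, 1 rose, Syne2, a nesprin that ties the nucleus to actin, at least 1.55-fold. Syne2 had 54 reads in day 0 replicate 1 and none in the other earlier samples, so it needed its day 7 reads to enter. Its day 7 levels, 30.6 and 16.9 CPM, lay below the 37.8 CPM of day 0 replicate 1. The zeros of day 3 allow 15.4 CPM. The medians for day 7 against day 0 were 1.09 for the tubulin list, or 0.40 with bounds, and 0.20 for the lamina list. In day 3 against day 0 limma called 0 genes of the 3 lists, with 5 actin, 0 tubulin and 0 lamina genes at an unadjusted p under 0.05.

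Markers of other cell types moved with the later day. The 4 of 10 embryonic stem cell markers with a site summed to 2563 and 2434 CPM before differentiation, 2830 and 2960 after 3 days and 423 and 806 after 7 days. Pou5f1, Esrrb and the entry of Sox2 fell, with log2 fold changes of -2.74 ± 0.43, -2.53 ± 0.52 and -1.15 ± 0.32 for day 7 against day 0. The 5 of 10 germ layer markers with a site summed to 0 and 28 CPM on day 0, 0 in either day 3 sample and 912 and 770 on day 7. Krt8 and Krt18, keratins of simple epithelium, were at least 22-fold and 27.2-fold higher on day 7 than on day 0, Sox11, a neural and mesenchymal factor, at least 6.9-fold and T, brachyury, at least 1.1-fold; Nes, nestin, passed against day 3, at least 4.81-fold higher on day 7. Krt8, Krt18, Sox11 and T had no listed reads in any earlier sample, so they entered the test through day 7 alone. Nes, with 14 reads in day 0 replicate 2 and none in the other earlier samples, also needed its day 7 reads to enter. Of the fibroblast markers 1 of 10 had a site, Col1a1, with 76 and 29 reads in the day 7 samples and 0 in each earlier one. None of 10 muscle markers had a site. The part of these cell types and markers in the rise of Tpm1 and Flnc was not tested.

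The genes with read levels most like those of each of the 8, by Pearson's r over the 6 in-cell samples among 2381 other genes, are given as a description. Tpm1 was most like Agpat4 and Fam171a2 (0.994 each), Flnc like Peg3 (0.993) and Lsr (0.992), and Tmsb4x like Ino80c (0.998) and Mga (0.997). Vasp was most like Ssrp1 (0.992) and Sf3a1 (0.982), Arpc4 like Nfyb (0.960) and Fbxo5 (0.955), and Lmnb1 like Gar1 (0.986). Tubb5 was most like Rps19 (0.95) and Eif4g2 (0.946), and Tuba1b like Ssbp1 (0.916) and the entry shared by Gm45713 and Rpl13a (0.906). The 6 samples share their depth and scaling.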

How the data were processed

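Per the file headers, the authors deposited, for each site, whole-number read counts of coverage and of stops in K+ and in Li+, without normalisation. The submitters' processing notes list STAR, SAMtools and cutadapt, and the builds mm10 and GRCm38.p6, without tool versions. Strand use is not stated. Deposited starts count from 0, judged by the marked stop positions of 5380 of 5387 unspliced motifs, and were moved to 1-based.

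The members and gene lists were chosen with earlier results of these data known. The rule names all 8 genes with every site; sites not given singly are given by range. Of the lists, up to 6 genes per direction and comparison are named, lowest adjusted p first. Some genes that these rules would name are not reported here.

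Stops and reads were tested with limma-voom (limma 3.58.1, R 4.3.3) on all 6 in-cell samples, after trimmed mean of M values scaling over the sites kept. Sites needed 10 counts at the median library size in 2 libraries and 15 in all. Scaling before this filter had been run first and its counts seen; it is now an alternative. Log2 odds ratios (pseudocount 0.5) were weighted by counting variance plus a common variance. Adjusted p-values are Benjamini-Hochberg over all features, with a threshold of 0.05. A listed 0 was set to 5 reads per cation, or 10 for both, in bounds. Missing values at 2 sites of another gene were taken as 0. An edgeR alternative was not run, because records that span 2 lines could not be entered as count columns. Fits without 1 sample keep the sites of the full fit, a choice made after their values were seen. Intervals are Clopper-Pearson at 95%. Both directions were tested. Tested on simulated data, the procedures made false calls at a higher rate than the threshold. No replicate block was used.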

Additional observations from a re-analysis of the deposited data

Results flagged for a closer look

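The change of K+ against Li+ stop odds at Tubb5 site 1 between day 3 and day 0 differed between the days by the test of the difference itself, at 3.25 on the log2 scale (adjusted p = 0.0382 in limma). All 4 samples kept their side, with 1.91 and 2.29 on day 3 and -0.32 and -2.30 on day 0. Beside it, the median of all 847 sites was 1.31 and 0.33 on day 3 and -0.16 and -0.50 on day 0. The part of these library-wide shifts in the result was not tested.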

How the results depend on the processing

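The planned edgeR alternative was not run. For K+ stops, day 7 against day 0 (53 sites, 33 higher), total stop counts gave 93 (89 higher), no filter 154, the 2 days alone 90, and scaling before the filter 66 (55 higher). Day 3 against day 0 (2 sites) gave 43 with total stop counts, 0 with median-ratio factors, 14 with no filter, 18 with scaling before the filter, 6 summed per gene and 1 with the cations of day 0 replicate 2 exchanged. Day 7 against day 3 (21) gave 134 with no filter, 38 with scaling before the filter and 39 summed per gene. Scaling before the filter was added after the data were seen.

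For the odds on day 3 (66 sites), a coverage minimum of 50 gave 20, a pseudocount of 1 gave 10 and no weights 0. On day 7 (0 sites) the exchange of cations gave 6. The change from day 0 to day 3 (53) gave 9, 7 and 0 under those 3 settings and 0 with the cations exchanged.

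For reads, day 7 against day 0 (439, 364 higher) gave 1012 over all sites, 200 with the 2 days alone and 446 (429 higher) with total reads. Day 3 against day 0 (2) gave 4 over all sites, 25 with K+ reads, 1 with Li+ reads and 0 with the 2 days alone. Day 7 against day 3 (302) gave 603 over all sites and 172 with Li+ reads.

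Scaling by totals moved the median log2 change of all sites for day 7 against day 0 to 1.26, against 0.16, for stops and to 1.01, against 0.57, for reads.

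With 1 sample left out and the tested sites held, K+ stops ran from 21 to 69 for day 7 against day 0, from 0 to 3 for day 3 against day 0 and from 14 to 22 for day 7 against day 3. The odds ran from 0 to 108 on day 3 and from 0 to 10 on day 7, and their change from 0 to 18 for day 7 against day 0, from 0 to 84 for day 3 against day 0 and from 0 to 4 for day 7 against day 3. Reads ran from 113 to 1064 for day 7 against day 0, from 0 to 331 for day 3 against day 0 and from 0 to 585 for day 7 against day 3. The lowest counts on day 3 came without day 3 replicate 1, which left 0, and for reads of day 7 against day 3 without day 3 replicate 2. A lone sample is assumed to vary like the other days. The causes were not tested.

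Same-numbered samples deviated with correlations between -0.07 and 0.28, so the numbers do not pair the samples. With the replicate block, K+ stops gave 52, 0 and 18 for day 7 against day 0, day 3 against day 0 and day 7 against day 3. The odds gave 106 on day 3 and 3 on day 7, and their change 14, 132 and 2 in the same order of comparisons. Reads gave 264, 0 and 214. The block ended none of the calls named among the 8 genes and added others: Tubb5 site 4 for the odds on day 3, Tubb5 site 1 for their change on day 7 against day 0, Lmnb1 sites 3 and 4 and Tubb5 sites 2 and 4 on day 3 against day 0, Lmnb1 site 3, lower, on day 7 against day 3, and Flnc reads on day 7 against day 3.

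Of the settings run for the named sites, 114 kept direction and call, 24 kept direction without the call, and 0 turned the direction. In the day 0 and day 3 libraries between 18 and 25 of the 30 sites had 20 or more reads, which limits those days most.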
